A study of Mus musculus with 15 samples.

Results

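The Hox genes described here are the coding genes of the Hoxa, Hoxb, Hoxc and Hoxd clusters, taken as every row of the count table whose symbol is Hoxa, Hoxb, Hoxc or Hoxd followed by a number. The rule gave 39 of 24451 genes, of which 38 are reported here, with 10 in the Hoxa, 10 in the Hoxb, 9 in the Hoxc and 9 in the Hoxd cluster. Of the 38, 22 had enough counts to be tested for a difference between groups (7 Hoxa, 9 Hoxb, 2 Hoxc and 4 Hoxd genes) and 16 did not.

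RNA was sequenced from mouse ES-R1 embryonic stem cells that had differentiated for 4 days without serum, in medium supplemented with N2 and B27, and all cells were at fewer than 20 passages. The 5 groups of 3 libraries were cells with Vprbp siRNA and 25 ng/ml Activin A, with control siRNA and 25 ng/ml Activin A, with control siRNA and the compound SB, with Vprbp siRNA and no addition, and with control siRNA and no addition. Every group carried an siRNA, SB was given with control siRNA only, and 1 cell line was used throughout. SB, written SB431524 in the sample titles and SB431542 in the series text, with no dose stated, is under the name in the series text an inhibitor of the receptor kinases for Activin and Nodal. Vprbp is the substrate-binding subunit of a cullin-RING ubiquitin ligase. Whether the 3 libraries of a group came from separate cultures is not stated, so the tests measure the spread between libraries, which may be technical.

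Hox genes encode homeodomain transcription factors that give cells of the embryo their position along the head-to-tail axis. Within a cluster the genes lie in a fixed order, and the members of low number, at the 3' end, are switched on earlier and nearer the head than those of high number. Genes of the same number in different clusters descend from 1 ancestor and form a paralog group. Retinoic acid, Wnt and Fgf signals and Cdx factors induce Hox genes, and Polycomb complexes keep them silent in embryonic stem cells.

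On mm10, the build named in the submitters' processing notes, the GENCODE vM21 gene models place the reported Hoxa genes on the minus strand at chr6:52162417-52260880. The Hoxb cluster lies on the plus strand at chr11:96194316-96368256, the Hoxc cluster on the plus strand at chr15:102921103-103036852 and the Hoxd cluster on the plus strand at chr2:74668310-74765142. Exons of some members overlap other genes. Reads from the opposite strand could therefore be counted, since the sources used here do not say whether counting used strand. The antisense gene Hoxb3os covers 52.9% of the exon bases of Hoxb3 and 27.3% of those of Hoxb2. Antisense genes cover 25.4% of those of Hoxa3, 20.4% of those of Hoxa7 and 16.0% of those of Hoxa4. Hoxd4 shares 52.3% of its exon bases with other genes of the same strand, mainly Hoxd3, and the split of reads between these genes is uncertain. No exon base of Hoxa5, Hoxa10, Hoxb1, Hoxb4, Hoxb9, Hoxb13, Hoxc4 or Hoxc13 was shared with another annotated gene.

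RefSeq promoter windows on GRCm38.p6, of 300 bases each (250 before and 50 after the start), were at hand for 22 of the 38 genes, as 24 windows. They were richer in CpG than the 32851 windows of all 27025 genes in the table, with a median ratio of observed to expected CpG of 0.626 against 0.384. The motif AGGTCA, a sequence bound by nuclear receptors such as those for retinoic acid, was found on either strand in 7 of the 24 Hox windows (29.2%) and in 16.3% of all windows. TGATNNAT, a site for Pbx and Hox proteins together, was found on either strand in 4 of the 24 (16.7%) and in 8.85% of all windows. AATCCACA, a Foxh1 site, and the Smad palindrome GTCTAGAC were searched on both strands, found in none of the 24, and held by 0.855% and 0.213% of all windows. No matches of different motifs overlapped in the windows shown. Hoxa3, Hoxa9 and Hoxa10, whose RNA differed between groups, had none of these motifs in their windows. Of the tested genes that passed in no comparison, Hoxb4, Hoxb8 and Hoxd4 had a motif and Hoxa7, Hoxd1, Hoxd9 and Hoxd13 had none. A link between motifs and RNA was not tested. The windows of 4 genes whose RNA differed between groups and that hold a motif are shown 5' to 3' on each gene's own strand, with the motif in capitals. Hoxb1 (chr11:96365508-96365807, plus strand) and Hoxa2 (chr6:52164782-52165081, minus strand) hold the Pbx-Hox motif, in Hoxa2 as its reverse complement. Hoxa5 (chr6:52204538-52204837, minus strand) and Hoxc4 (chr15:103034145-103034444, plus strand) hold the nuclear receptor motif, in Hoxc4 as its reverse complement.
Hoxb1: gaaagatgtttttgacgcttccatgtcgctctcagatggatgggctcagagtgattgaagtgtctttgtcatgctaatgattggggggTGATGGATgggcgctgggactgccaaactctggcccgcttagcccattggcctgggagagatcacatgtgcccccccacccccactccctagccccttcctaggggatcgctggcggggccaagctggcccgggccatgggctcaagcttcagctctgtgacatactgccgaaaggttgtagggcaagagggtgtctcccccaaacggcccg
Hoxa2: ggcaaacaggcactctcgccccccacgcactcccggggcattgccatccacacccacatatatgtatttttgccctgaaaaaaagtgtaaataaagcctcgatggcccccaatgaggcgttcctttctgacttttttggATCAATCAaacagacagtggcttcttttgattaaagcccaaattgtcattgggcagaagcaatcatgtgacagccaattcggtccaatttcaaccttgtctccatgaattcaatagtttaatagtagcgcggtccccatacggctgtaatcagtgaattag
Hoxa5: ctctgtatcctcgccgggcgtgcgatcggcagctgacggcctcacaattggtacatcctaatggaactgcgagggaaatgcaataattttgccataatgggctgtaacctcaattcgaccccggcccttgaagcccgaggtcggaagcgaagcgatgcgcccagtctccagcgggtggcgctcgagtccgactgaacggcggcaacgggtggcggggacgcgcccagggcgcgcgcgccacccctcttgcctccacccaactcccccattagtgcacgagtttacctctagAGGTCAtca
Hoxc4: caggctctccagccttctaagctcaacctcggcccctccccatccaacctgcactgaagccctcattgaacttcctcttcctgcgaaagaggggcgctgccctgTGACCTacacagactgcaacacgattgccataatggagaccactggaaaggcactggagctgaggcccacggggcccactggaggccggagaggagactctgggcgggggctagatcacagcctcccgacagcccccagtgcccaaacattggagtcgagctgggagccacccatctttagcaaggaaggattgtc

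Hox levels are given as counts-per-million values (CPM), that is, scaled to the counts assigned to genes in each library, with edgeR's TMM factors between libraries. The libraries held 11146183 to 15527245 counts assigned to genes, so that a floor of 3 counts corresponds to 0.193 to 0.269 CPM. Vprbp, the siRNA's target, was at 131 to 149 CPM in cells with Vprbp siRNA and Activin against 175 to 184 CPM with control siRNA and Activin, and at 114 to 132 CPM with Vprbp siRNA alone against 167 to 173 CPM with control siRNA alone. Lefty2, a direct target of Activin and Nodal signalling, was at 180 to 214 CPM with Activin, 0.723 to 1.31 CPM with SB and 16.5 to 56.3 CPM without addition, all with control siRNA. On the first principal component of all genes, the third library of control siRNA cells and the third of Vprbp siRNA cells without addition lay nearer to the SB libraries than others of their groups, and the first library of Vprbp siRNA cells with Activin stood apart on the second component. Hox results that rest on these 3 libraries are given with and without them.

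Levels per length were compared between genes, and among the genes reported here the order differed between the groups. The lengths are those of all exons in GENCODE vM21, and the annotation used for counting is not stated. It may differ, since the count table has no row named Hoxb3os, so the order of genes within a group is approximate. Hoxb1, the gene at the 3' end of its cluster, had a level per kilobase of exon of 2.72 ± 0.202 CPM in Activin-treated, 1.24 ± 0.674 CPM in SB-treated and 3.47 ± 0.213 CPM in untreated control siRNA cells (SD, n = 3 each). In untreated control siRNA cells the next levels per kilobase were 2.77 ± 0.384 CPM for Hoxa5, 2.41 ± 0.333 for Hoxc4, 2.16 ± 0.260 for Hoxa4, 2.11 ± 0.553 for Hoxc13 and 2.08 ± 0.192 for Hoxa3. The libraries of Hoxb1 lay above all those of Hoxa5, whereas from Hoxa5 down to Hoxa3 the ranges of neighbours overlapped. Place in this order did not follow place in the cluster: Hoxc13 and Hoxb9, toward the 5' ends of their clusters, had higher means than Hoxb3 and all Hoxd genes. With SB the highest of these levels per kilobase was that of Hoxc4, at 4.62 ± 0.732 CPM, with every library above those of the next gene, Hoxc13, at 2.03 ± 0.371 CPM. With control siRNA and Activin Hoxa5 came first, at 3.05 ± 0.436 CPM, and its range overlapped that of Hoxb1. With Vprbp siRNA Hoxb1 had the highest of these means per kilobase, at 3.83 ± 0.992 CPM with Activin, where it overlapped Hoxa5, and 6.01 ± 1.17 CPM without addition, where it did not.

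The summed level of the 38 genes was 73.1 ± 13.3 CPM in cells with Vprbp siRNA and Activin, 62.1 ± 0.519 CPM with control siRNA and Activin, 53.7 ± 6.84 CPM with control siRNA and SB, 93.9 ± 12.3 CPM with Vprbp siRNA and 75.8 ± 2.31 CPM with control siRNA (SD, n = 3 each). Sums were not tested. The sums of the clusters did not all differ in the same direction. With SB, the Hoxa sum was 13.5 to 18.9 CPM against 27.8 to 31.5 CPM without addition, the Hoxb sum was 13.0 to 18.01 CPM against 28.7 to 30.6 CPM, and the Hoxc sum was 15.8 to 21.0 CPM against 11.9 to 13.9 CPM. With Activin under control siRNA, the Hoxb sum was 26.1 to 30.1 CPM, overlapping the untreated range, while the Hoxc sum, at 5.48 to 9.33 CPM, and the Hoxa sum, at 23.2 to 24.3 CPM, lay below those same untreated ranges. The Hoxd sum stayed between 2.44 and 7.04 CPM over all 15 libraries. Since these are bulk samples, fewer cells expressing a gene and less RNA per cell cannot be told apart.

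**Figure D1:**
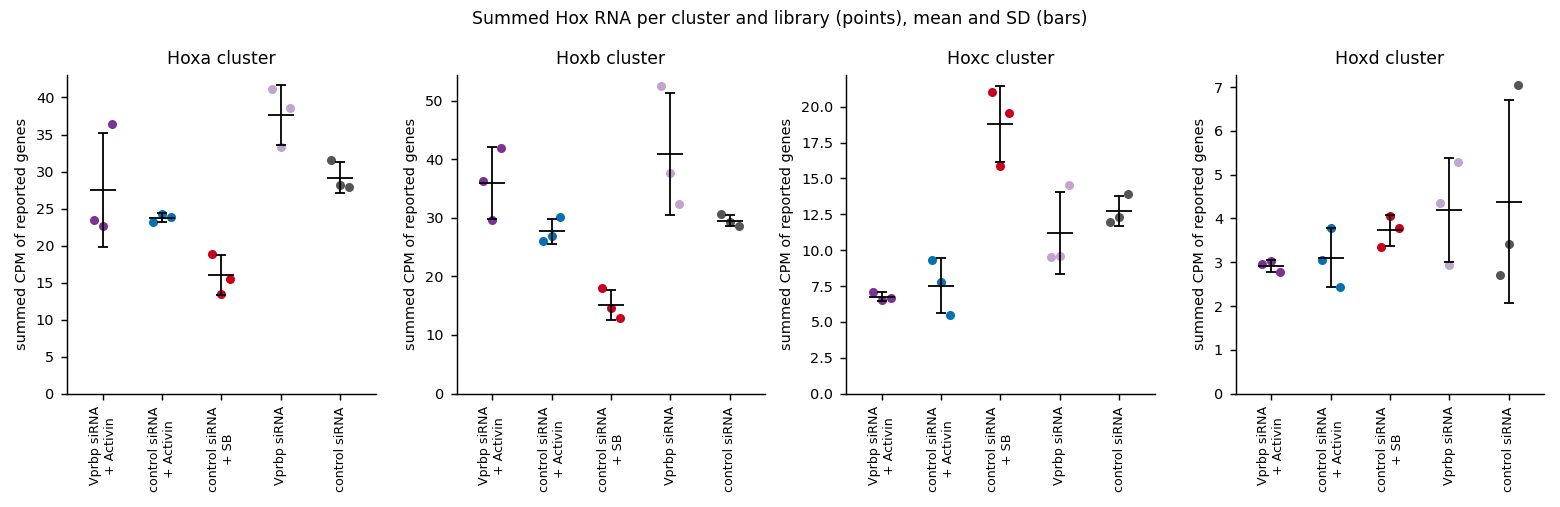
Summed CPM of the reported genes of each Hox cluster (vertical axes, starting at 0) in every library (points), with the mean and SD of the 3 libraries (bars), by siRNA and addition. The SB libraries lie lowest for Hoxa (13.5 to 18.9 CPM) and Hoxb (13.0 to 18.01 CPM) and highest for Hoxc (15.8 to 21.0 CPM).

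SB treatment went with lower RNA of 4 Hoxa and 4 Hoxb genes and higher RNA of Hoxc4. Against untreated cells with control siRNA, 8 of the 22 genes (36.4%) were lower and 1 (4.55%) was higher with SB at an adjusted p of 0.05 in the quasi-likelihood test of edgeR (Benjamini-Hochberg over all 14600 genes tested). Of all genes tested, 11.3% were lower and 11.2% higher, so the share of Hox genes that fell was above the background. The 1 higher call is too few to set against it. The median log2 fold change was -0.51 over the 22 genes and -0.00 over all genes. The filter on low counts passes a gene that is high in any 1 group, and these counts over the tested genes are a description.

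Among the genes that passed the count filter, the deepest falls were those of Hoxb5, Hoxa9 and Hoxa10. Hoxb5, a gene of neural crest and foregut patterning, had 0.363, 0.217 and 0.0716 CPM with SB, against 2.44, 1.09 and 1.57 CPM in untreated cells. All 3 SB libraries lay below all 3 untreated ones, and with 5, 3 and 1 counts they were at or near the floor. Its log2 fold change was -2.93 ± 0.53 (SE, edgeR adjusted p = 0.000377), and the ratio of the pooled counts, 9 against 72, was 0.126 with a 95% interval for counting error alone of 0.0554 to 0.253. Hoxa9, known for its role in blood stem cells, had 0.0726, 0.217 and 0.143 CPM with SB, against 0.881, 0.869 and 0.973 CPM in untreated cells. The groups did not overlap, and the SB libraries held 1, 3 and 2 counts. The log2 fold change was -2.58 ± 0.57 (edgeR adjusted p = 0.00242), and the pooled ratio of 6 to 38 counts was 0.159 (95% counting interval 0.0550 to 0.380). For Hoxa10, which patterns the lumbar vertebrae and the uterus, the levels were 0.581, 0.289 and 0.358 CPM with SB, against 2.44, 1.88 and 2.02 CPM without addition. Here too every SB library was below every untreated one, with a log2 fold change of -2.35 ± 0.39 (edgeR adjusted p = 0.00016).

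The 3' genes of the Hoxb cluster fell as well. Hoxb1, which sets the identity of a single hindbrain segment and maintains its own expression through Pbx-Hox sites, had 4.58, 2.53 and 1.5 CPM with SB, against 8.41, 8.26 and 7.49 CPM in untreated cells. The SB libraries were all lower and spread more widely than the untreated ones, and the log2 fold change was -1.49 ± 0.28 (edgeR adjusted p = 0.000711). Hoxb2, a hindbrain gene downstream of Hoxb1, had 2.47, 2.53 and 1.14 CPM with SB, against 5.76, 5.07 and 5.39 CPM in untreated cells. These ranges did not overlap either, and the log2 fold change was -1.40 ± 0.36 (edgeR adjusted p = 0.00992). It was the only 1 of the 9 calls that leaving out a library ended, with an adjusted p of 0.0518 without the third SB library. Hoxb3, active in the posterior hindbrain, had 1.38, 1.16 and 0.501 CPM with SB, against 3.73, 4.13 and 1.80 CPM in untreated cells. The third untreated library lay closest to the SB libraries without reaching them, and the log2 fold change was -1.67 ± 0.39 (edgeR adjusted p = 0.00399).

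Hoxa5 and Hoxa3 also fell with SB. Hoxa5, needed for lung and cervical vertebrae, had 3.20, 2.31 and 2.22 CPM with SB, against 5.83, 5.36 and 4.42 CPM in untreated cells. Hoxa3, needed for thymus and parathyroid, had 8.14, 6.29 and 6.73 CPM with SB, against 13.8, 12.0 and 11.7 CPM in untreated cells. Neither gene's ranges overlapped, with log2 fold changes of -1.01 ± 0.21 for Hoxa5 (edgeR adjusted p = 0.00137) and -0.83 ± 0.19 for Hoxa3 (edgeR adjusted p = 0.0032). Hoxa4 had a log2 fold change of -0.75 ± 0.29 (edgeR adjusted p = 0.0675), Hoxa2 one of -0.48 ± 0.34 (edgeR adjusted p = 0.356) and Hoxa7 one of -0.22 ± 0.38 (edgeR adjusted p = 0.736).

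Hoxc4, which takes part in patterning the cervical and thoracic vertebrae, was the single Hox gene higher with SB. It had 13.8, 10.1 and 11.7 CPM with SB, against 5.63, 7.17 and 5.76 CPM in untreated cells. All SB libraries lay above all untreated ones, with a log2 fold change of 0.94 ± 0.21 (edgeR adjusted p = 0.00238). Its paralogs had log2 fold changes of -0.75 ± 0.29 (Hoxa4), -0.34 ± 0.30 (Hoxb4) and -0.55 ± 0.56 (Hoxd4), none of which passed. In the other paralog groups the response to SB also varied. Hoxa5 and Hoxb5 both fell, whereas beside Hoxa9 the values of Hoxb9 (-0.13 ± 0.22, edgeR adjusted p = 0.743) and Hoxd9 (0.56 ± 0.61, edgeR adjusted p = 0.566) did not pass. Beside Hoxb1, Hoxd1 was at -1.49 ± 0.54 (edgeR adjusted p = 0.051) on 3 to 7 counts in each SB library. Differences between paralogs were not tested.

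**Figure D2:**
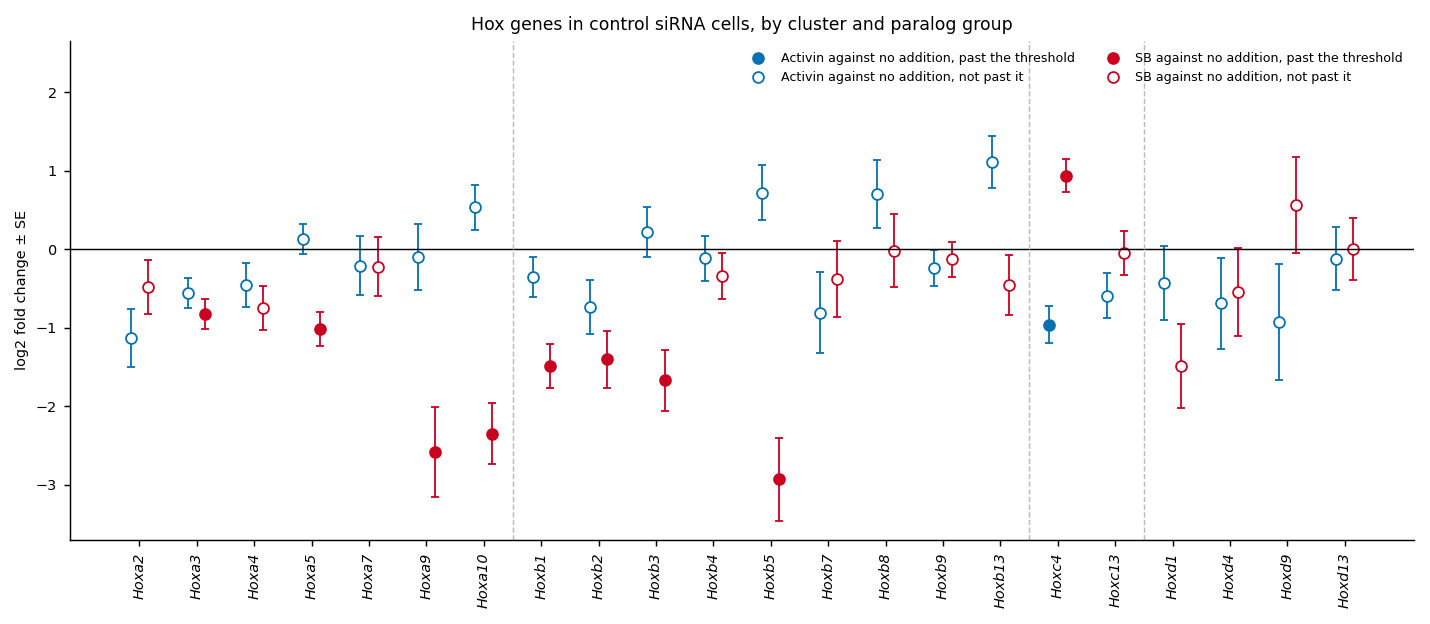
Log2 fold change with its standard error (vertical axis) of the 22 Hox genes, in cluster and number order (horizontal axis, dashed lines between clusters), for Activin (blue) and SB (red) against no addition in control siRNA cells. Filled points passed an adjusted p of 0.05; Hoxb5, Hoxa9 and Hoxa10 are lowest with SB, and Hoxc4 lies at 0.94 with SB and -0.96 with Activin.

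Markers of other cell types moved with SB too, and their calls stand beside 11.2% higher and 11.3% lower of all genes. The summed level of 10 trophoblast markers was 1551 to 1847 CPM with SB and 615 to 735 CPM without addition, with 5 of 9 tested members higher and Elf5 at 0 in every untreated library. The sum of 10 ES cell identity genes was 2484 to 2846 CPM with SB and 4140 to 4524 CPM without, with 7 of 10 lower. Of 9 tested anterior neural genes 4 rose and 1 fell, and the list summed to 145 to 154 CPM with SB against 71.2 to 183 CPM without. The sum of 12 fibroblast markers, which feeder cells would carry, was 54.4 to 62.7 CPM with SB and 70.6 to 87.1 CPM without, with 2 of 9 tested members lower and no marker at 0 in either group. Extraembryonic endoderm markers summed to 256 to 307 CPM with SB and 185 to 216 CPM without, with 3 of 9 higher and 1 lower. The single lower calls in the anterior neural and extraembryonic endoderm lists (11.1% each) are near the share of all genes. The part of the marker changes in the Hox values was not tested. Without the 3 libraries that stood apart, 11 Hox genes passed with SB, including all 9 named here.

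Activin treatment of control siRNA cells went with a call for few Hox genes: 1 of 22 (4.55%) was lower and 0 were higher, against 1.88% lower and 2.95% higher of all genes, and 5 (22.7%) had an unadjusted p under 0.05, near the 20.6% of all genes. The median log2 fold change was -0.29 over the 22 genes and -0.01 over all genes. Hoxc4 had 4.20, 3.16 and 2.25 CPM with Activin, against 5.63, 7.17 and 5.76 CPM in untreated cells. Its groups did not overlap and its log2 fold change was -0.96 ± 0.24 (edgeR adjusted p = 0.0248). That call was lost on leaving out the second untreated, the second Activin or the third Activin library, with an adjusted p of up to 0.142. Hoxb13, the 5' gene of the Hoxb cluster, known from prostate and tail development, was at 2.22, 2.62 and 3.11 CPM with Activin and 0.542, 1.59 and 1.57 CPM without. All Activin libraries were higher, but the log2 fold change of 1.11 ± 0.33 did not pass (edgeR adjusted p = 0.0584) unless the 3 libraries that stood apart were left out or the replicate number was a block.

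Beside Hoxc4, the neural plate, hindbrain and mesoderm marker lists had lower sums with Activin, while the anterior neural list had a higher one. The calls stand beside 2.95% higher and 1.88% lower of all genes. The summed level of 10 neural plate and neuron markers was 123 to 134 CPM with Activin and 179 to 201 CPM without addition, with 3 of 7 tested members lower and Neurog2 at 0 in every untreated library. The sum of 10 hindbrain regulators was 154 to 169 CPM with Activin and 172 to 212 CPM without, with 1 of 9 tested members, Irx3, lower. The sum of 9 mesoderm markers was 90.2 to 96.8 CPM with Activin and 127 to 159 CPM without, with 0 of 7 tested members called. The sum of 11 anterior neural genes was 253 to 265 CPM with Activin and 71.2 to 183 CPM without, with 0 of 9 tested members called. The median log2 fold change of those 9 was -0.11, so the higher sum does not describe most of them. The part of these levels in the Hoxc4 values was not tested.

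Activin and SB were also compared directly, within control siRNA cells. Of the 22 genes, 7 (31.8%) were higher and 1 (4.55%) was lower with Activin than with SB, beside 19.0% higher and 19.0% lower of all genes. The comparisons of SB and of Activin with no addition share the untreated libraries, and this one sets their treated libraries against each other. The median log2 fold change was 0.28 over the 22 genes and -0.00 over all genes. Hoxb5 was at 2.06, 3.25 and 3.17 CPM with Activin, against 0.363, 0.217 and 0.0716 CPM with SB. That gap, a log2 fold change of 3.65 ± 0.50 (edgeR adjusted p = 8.36e-06), was the widest among the Hox genes, and the ratio of 111 to 9 pooled counts was 13.1 (95% counting interval 6.63 to 29.3). Hoxa10 followed, with 2.60, 3.25 and 3.37 CPM with Activin against 0.581, 0.289 and 0.358 CPM with SB. No library of the groups overlapped, and its log2 fold change was 2.88 ± 0.37 (edgeR adjusted p = 4.73e-06). Hoxa9 was at 1.07, 0.903 and 0.595 CPM with Activin and 0.0726, 0.217 and 0.143 CPM with SB, again without overlap (2.48 ± 0.58, edgeR adjusted p = 0.00216).

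The other genes higher with Activin than with SB were Hoxa5, Hoxb1, Hoxb3 and Hoxb13. Hoxb3 had 3.52, 3.43 and 4.30 CPM with Activin, against 1.38, 1.16 and 0.501 CPM with SB (log2 fold change 1.89 ± 0.38, edgeR adjusted p = 0.000692). Hoxb13 had 2.22, 2.62 and 3.11 CPM with Activin, against 1.09, 0.651 and 0.930 CPM with SB (1.57 ± 0.35, edgeR adjusted p = 0.00133). In both genes the Activin libraries were all above the SB libraries. Hoxa5 had 5.96, 6.41 and 4.82 CPM with Activin, against 3.20, 2.31 and 2.22 CPM with SB (1.14 ± 0.21, edgeR adjusted p = 0.000235). Hoxb1 had 6.80, 5.87 and 6.28 CPM with Activin, against 4.58, 2.53 and 1.5 CPM with SB (1.14 ± 0.29, edgeR adjusted p = 0.00416). These ranges did not overlap either. Lower with Activin was Hoxc4, at -1.90 ± 0.23 (edgeR adjusted p = 1.66e-06), with no overlap of libraries. Each of these 8 calls held in every alternative fit that could test the gene. Hoxc4 had the smallest adjusted p of the Hox genes in this comparison, and it ran opposite to the other 7.

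**Figure D3:**
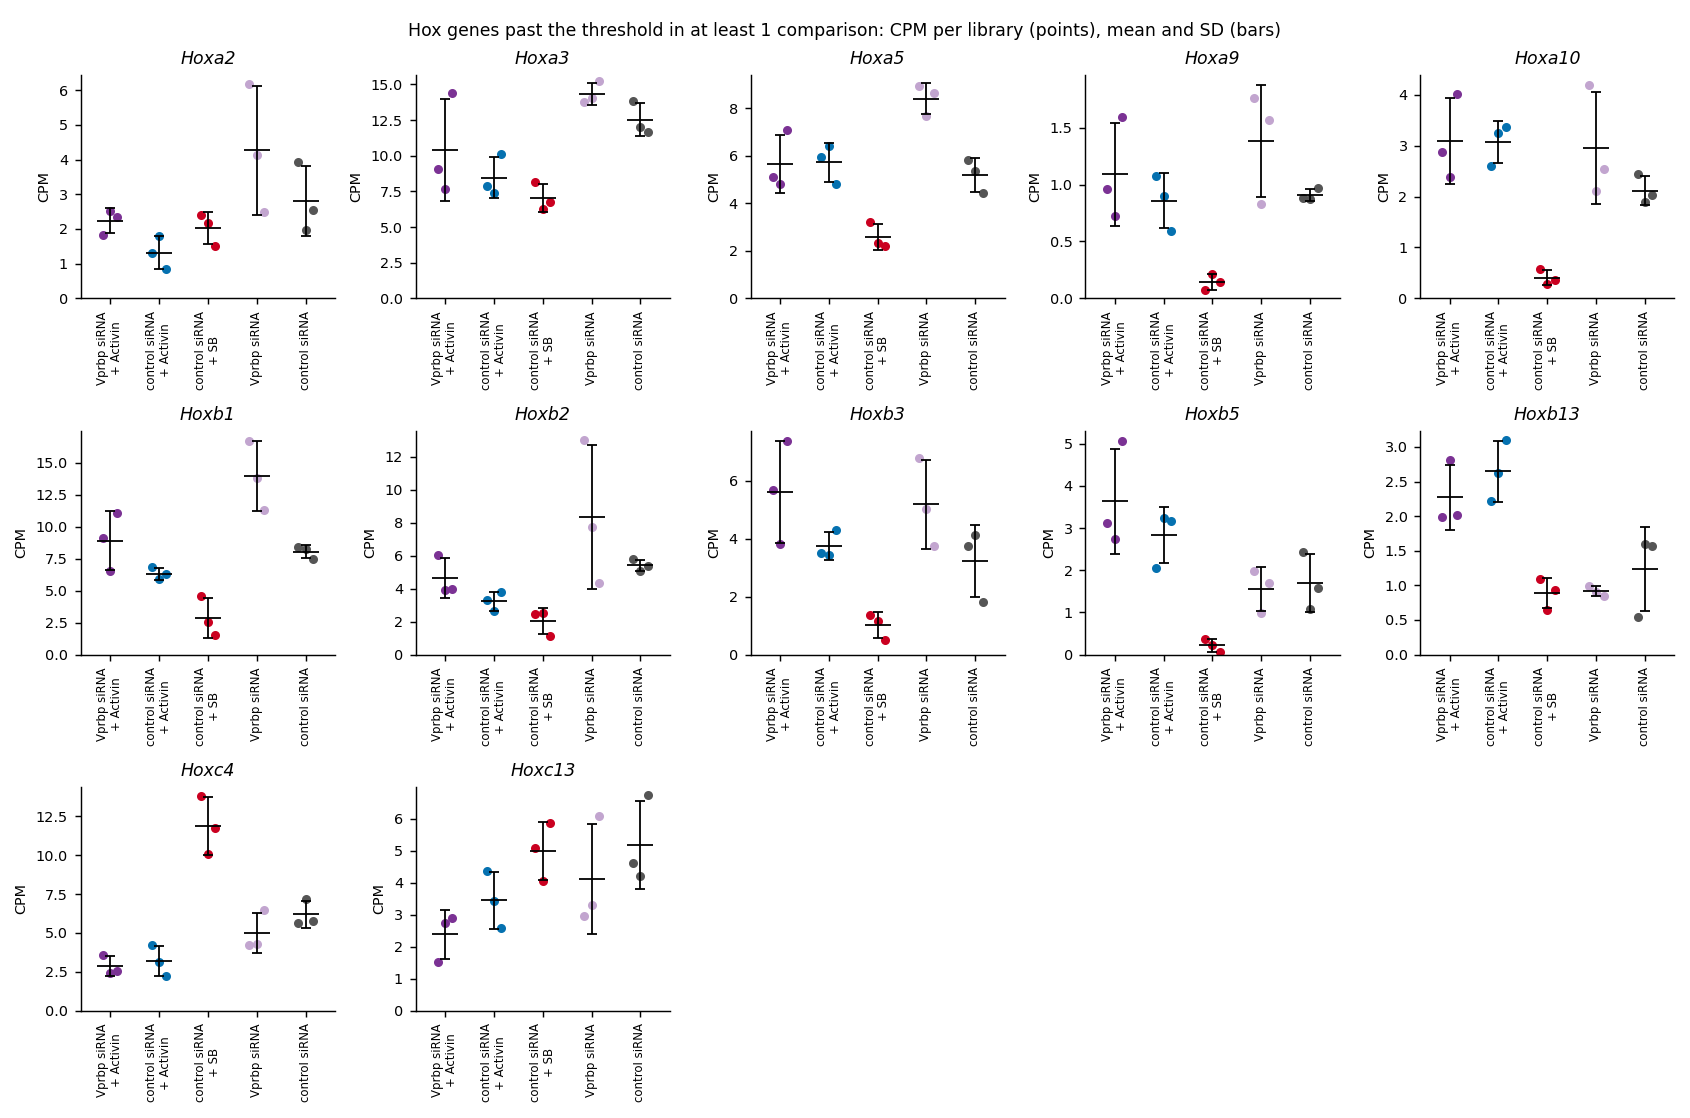
CPM per library (points) of the 12 Hox genes that passed the threshold in at least 1 of 9 comparisons, with the mean and SD of 3 libraries (bars), on linear axes that start at 0 and differ between panels. In Hoxa9, Hoxa10 and Hoxb5 the SB libraries lie near 0, and in Hoxc4 they lie above all others.

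With Vprbp siRNA, Activin went with higher Hoxb13 and Hoxb5 RNA, while most Hox genes had a log2 fold change below 0. Of the 22 genes, 2 (9.09%) were higher and 0 lower with Activin than without, against 3.65% and 2.47% of all genes. The log2 fold change was below 0 for 16 of the 22, with a median of -0.49, against -0.01 over all genes. An unadjusted p under 0.05 was found for 10 of them (45.5%), against 19.7% of all genes. Hoxb13 was at 1.99, 2.81 and 2.01 CPM with Activin, against 0.992, 0.901 and 0.850 CPM without. Hoxb5 was at 3.11, 2.74 and 5.06 CPM with Activin, against 1.98, 0.976 and 1.70 CPM without. Both were higher in every Activin library, with log2 fold changes of 1.31 ± 0.35 for Hoxb13 (edgeR adjusted p = 0.0302) and 1.23 ± 0.35 for Hoxb5 (edgeR adjusted p = 0.0382). Neither call was stable. Each was lost on leaving out any of the 3 untreated Vprbp siRNA libraries or 1 Activin library, the second for Hoxb13 and the third for Hoxb5. On leaving out 1 library the log2 fold change stayed at 1.13 to 1.41 for Hoxb13 and 0.92 to 1.44 for Hoxb5. The adjusted p then reached 0.138 for Hoxb13 and 0.139 for Hoxb5, and without the 3 libraries that stood apart Hoxb13 had an adjusted p of 0.061.

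No difference between the Activin responses under Vprbp siRNA and under control siRNA passed the test. Of the 22 genes 0 were called against 0% of all 14600 genes, and 1 (4.55%) had an unadjusted p under 0.05, against 3.54% of all genes. That gene was Hoxa5, for which the log2 fold changes of -0.56 under Vprbp siRNA and 0.13 under control siRNA differed by -0.69 ± 0.27 (edgeR adjusted p = 0.999). DESeq2 called 0 Hox genes as well.

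Averaged over both siRNAs, which brings 6 Activin and 6 untreated libraries together, 2 of 22 Hox genes (9.09%) were higher and 5 (22.7%) lower with Activin, beside 8.45% and 7.40% of all genes. The median log2 fold change was -0.37 over the 22 genes and -0.01 over all genes. The higher ones were the 5' gene Hoxb13, at 1.21 ± 0.24 (edgeR adjusted p = 0.00175), and Hoxb5, at 0.97 ± 0.25 (edgeR adjusted p = 0.00991). Among the lower ones, Hoxc4 was at -0.88 ± 0.17 (edgeR adjusted p = 0.00128). Hoxa2, which patterns the hindbrain and pharyngeal arches, was at 1.84, 2.53 and 2.36 CPM with Activin against 6.18, 4.13 and 2.48 CPM without under Vprbp siRNA. Under control siRNA it was at 1.30, 1.81 and 0.859 CPM with Activin against 3.93, 1.96 and 2.55 CPM without. The Activin libraries were lower under control siRNA without overlap and overlapped slightly under Vprbp siRNA, with an average log2 fold change of -1.02 ± 0.25 (edgeR adjusted p = 0.00768).

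Hoxa3 had an average log2 fold change of -0.51 ± 0.13 with Activin (edgeR adjusted p = 0.0107), from 9.10, 7.65 and 14.4 CPM with Activin against 13.7, 14.0 and 15.2 CPM without under Vprbp siRNA, and 7.87, 7.40 and 10.1 CPM against 13.8, 12.0 and 11.7 CPM under control siRNA. The third Activin library with Vprbp siRNA lay within the untreated range. Hoxb2 had 6.06, 3.9 and 3.95 CPM with Activin against 13.0, 7.73 and 4.32 CPM without under Vprbp siRNA, and 3.29, 2.62 and 3.77 CPM against 5.76, 5.07 and 5.39 CPM under control siRNA. Its untreated Vprbp siRNA libraries were widely spread, and its average of -0.79 ± 0.23 (edgeR adjusted p = 0.0302) was lost in 7 of 12 fits that left out 1 library. Hoxc13, known for hair and nail formation, had 1.52, 2.74 and 2.91 CPM with Activin against 2.98, 3.30 and 6.08 CPM without under Vprbp siRNA, and 4.36, 3.43 and 2.58 CPM against 4.61, 4.20 and 6.74 CPM under control siRNA. Its ranges overlapped under control siRNA only, and its average of -0.69 ± 0.21 (edgeR adjusted p = 0.0318) was lost in 5 of 12 such fits and without the 3 libraries that stood apart.

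**Figure D4:**
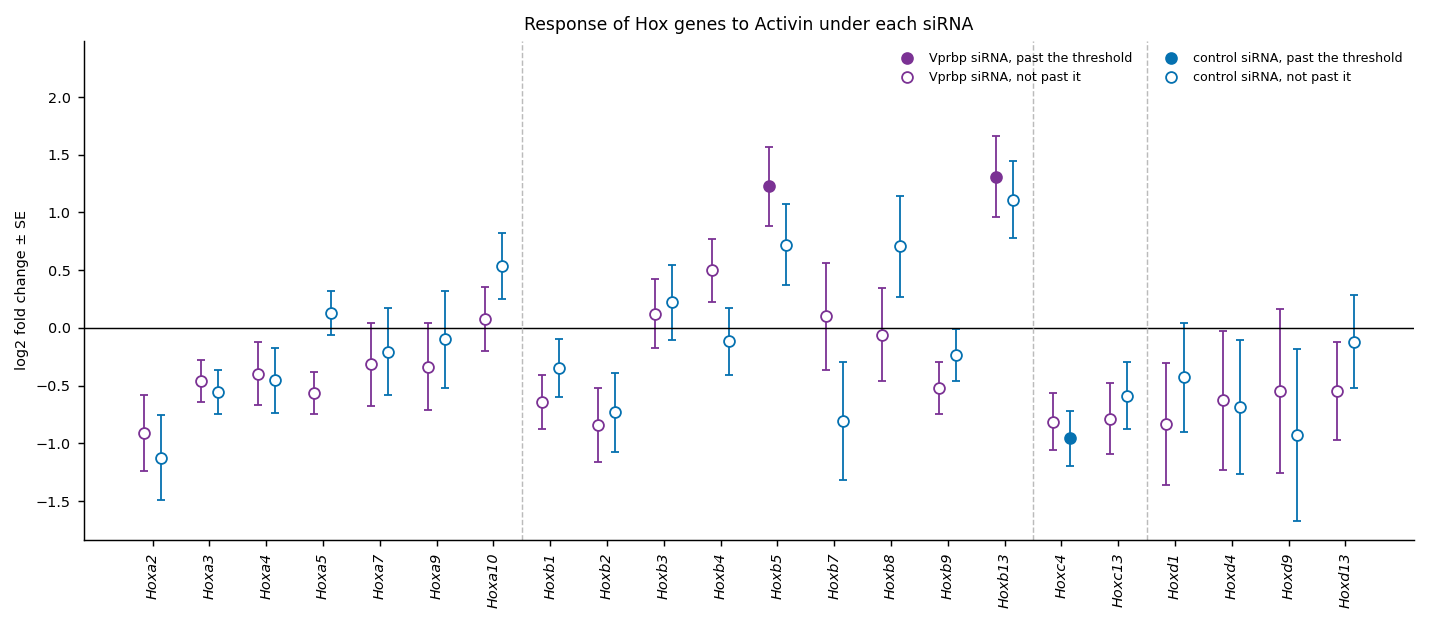
Log2 fold change of Activin against no addition, with its standard error (vertical axis), for the 22 Hox genes in cluster and number order, under Vprbp siRNA (purple) and control siRNA (blue). Filled points passed an adjusted p of 0.05; 18 of 22 genes have the same sign under both siRNAs, with Hoxc4 lower and Hoxb13 higher in both.

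Vprbp siRNA against control siRNA changed no Hox gene past the threshold, with or without Activin. Vprbp RNA itself was 22.8% lower with Activin and 28.6% lower without addition, so these comparisons cover a partial loss of that RNA only. With Activin 0 of 22 were called, against 0.0411% of all genes called in either direction, and 2 (9.09%) had an unadjusted p under 0.05, against 10.5% of all genes. Without addition 0 of 22 were called, again against 0.0411% of all genes, and 3 (13.6%) had an unadjusted p under 0.05, against 8.16% of all genes. DESeq2 called 0 Hox genes in either comparison. The median log2 fold change was 0.18 with Activin and 0.09 without, against 0.00 over all genes in both.

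The values nearest to a call without addition were those of Hoxb1 and Hoxa5. Hoxb1 was at 16.7, 13.8 and 11.3 CPM with Vprbp siRNA, against 8.41, 8.26 and 7.49 CPM with control siRNA. Hoxa5 was at 8.93, 7.66 and 8.63 CPM with Vprbp siRNA, against 5.83, 5.36 and 4.42 CPM with control siRNA. In both genes the Vprbp siRNA libraries were all higher. The log2 fold changes were 0.79 ± 0.24 for Hoxb1 (edgeR adjusted p = 0.443) and 0.69 ± 0.19 for Hoxa5 (edgeR adjusted p = 0.324). The 7 Hoxa genes had a log2 fold change above 0 and both Hoxc and all 4 Hoxd genes had one below 0 in this comparison, none of them past the threshold.

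With Activin, Hoxb1 had 9.10, 6.5 and 11.1 CPM with Vprbp siRNA and 6.80, 5.87 and 6.28 CPM with control siRNA, overlapping in 1 library (0.49 ± 0.25, edgeR adjusted p = 0.502). Hoxb4, known from blood stem cell expansion, had 4.71, 3.9 and 4.78 CPM with Vprbp siRNA and 2.98, 1.62 and 3.50 CPM with control siRNA. Its Vprbp siRNA libraries were all higher, with 0.70 ± 0.28 (edgeR adjusted p = 0.389). Hoxa2 had 1.84, 2.53 and 2.36 CPM with Vprbp siRNA and 1.30, 1.81 and 0.859 CPM with control siRNA. These libraries did not overlap either, with a log2 fold change of 0.80 (edgeR adjusted p = 0.476). Hoxb3 was at 5.66, 3.83 and 7.35 CPM with Vprbp siRNA and 3.52, 3.43 and 4.30 CPM with control siRNA, with overlap. Averaged over both conditions, 0 Hox genes were called against 0.938% of all genes, 5 (22.7%) had an unadjusted p under 0.05 against 14.6% of all genes, and Hoxb1 came closest with 0.64 ± 0.17 (edgeR adjusted p = 0.087). Hoxb1 did pass, as the 1 call of the list, with DESeq2, with the replicate block and in the fit to the libraries compared alone.

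**Figure D5:**
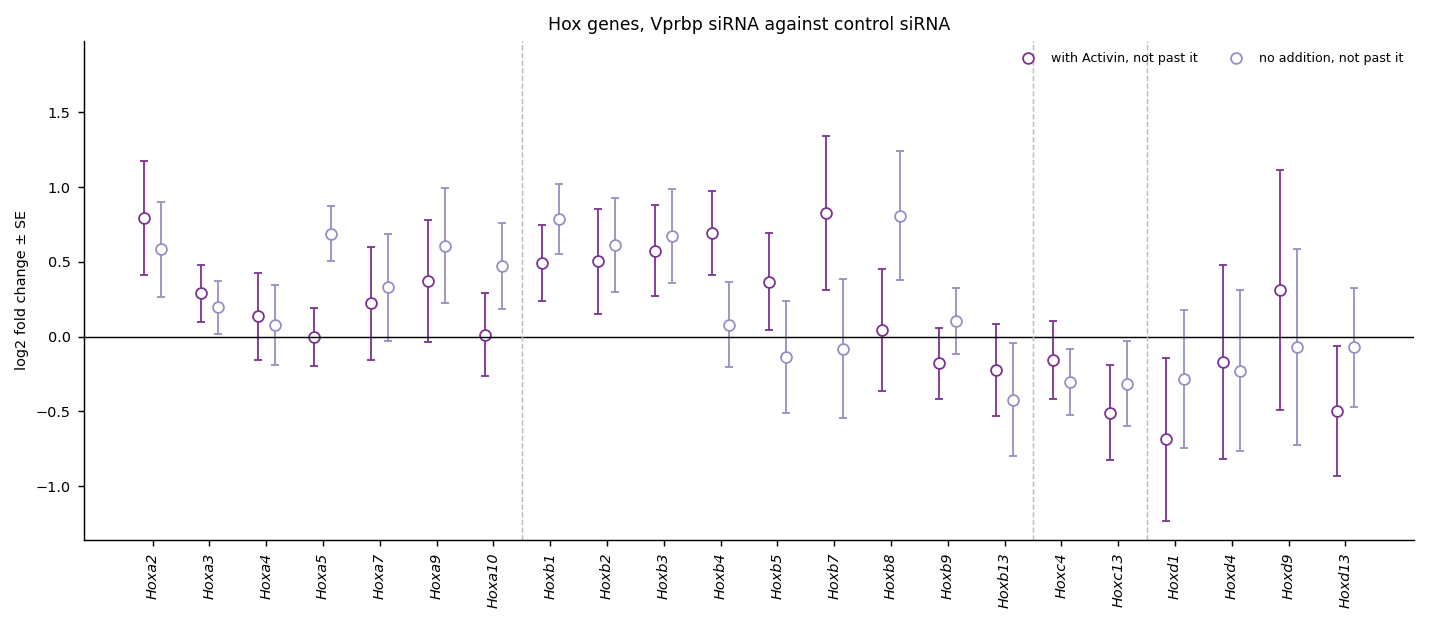
Log2 fold change of Vprbp siRNA against control siRNA, with its standard error (vertical axis), for the 22 Hox genes in cluster and number order, with Activin (dark) and with no addition (light). All points are open because no gene passed an adjusted p of 0.05; Hoxb1 lies at 0.49 with Activin and 0.79 without.

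The remaining 10 tested genes passed in none of the 9 comparisons. Hoxb9, a thoracic vertebra gene, was at 3.33 ± 1.03 CPM with Vprbp siRNA and Activin, 3.81 ± 0.666 CPM with control siRNA and Activin, 4.09 ± 0.494 CPM with SB, 4.82 ± 0.800 CPM with Vprbp siRNA and 4.48 ± 0.596 CPM with control siRNA (SD, n = 3 each). In the same order of groups, Hoxb4 averaged 4.46, 2.70, 2.35, 3.17 and 2.98 CPM, Hoxa4 averaged 2.74, 2.52, 2.04, 3.60 and 3.44 CPM and Hoxa7 averaged 1.83, 1.58, 1.56, 2.29 and 1.83 CPM. Hoxb8, active in myeloid progenitors and trunk neurons, ranged over its libraries between 0.286 and 2.29 CPM. Hoxd13, required for digits, ranged between 0.479 and 1.65 CPM and Hoxb7 between 0.264 and 1.39 CPM. Hoxd1, Hoxd4 and Hoxd9 stayed at or below 1.65, 1.12 and 1.37 CPM. Levels this low left log2 fold changes with standard errors of 0.54 for Hoxd1, 0.56 for Hoxd4 and 0.61 for Hoxd9 in the SB comparison. Even a log2 fold change of -1.49 for Hoxd1 did not pass there (edgeR adjusted p = 0.051). Changes well above 1 standard error could therefore be missed at this depth.

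Of the 38 genes, 24 had at least 1 count in all 15 libraries, and none was at 0 throughout. With at least 1 count in each of the 3 libraries of a group, 32 genes were detected with Vprbp siRNA and Activin, 26 with control siRNA and Activin, 29 with SB, 33 with Vprbp siRNA and 31 with control siRNA. Detection at 1 count can vary with depth, and the shallowest library, at 11146183 counts, belonged to the group with control siRNA and Activin. Hoxa6, Hoxc12, Hoxd3, Hoxd8 and Hoxd12 had counts in that library and none in the first of its group, while Hoxa11, Hoxc8 and Hoxd11 were the reverse. The part of depth in these numbers was not tested. At 10 counts in each library, 12 genes were detected with SB and 17 in every other group. The 16 untested genes had 1 to 98 counts in total over the 15 libraries and at most 0.957 CPM in any of them. They were Hoxa6 (27 counts), Hoxa11 (27), Hoxa13 (15), Hoxb6 (87), Hoxc5 (54), Hoxc6 (98), Hoxc8 (13), Hoxc9 (60), Hoxc10 (75), Hoxc11 (1), Hoxc12 (17), Hoxd3 (32), Hoxd8 (73), Hoxd10 (37), Hoxd11 (45) and Hoxd12 (10). Thus 7 of the 9 Hoxc genes lay below 1 CPM in every library while Hoxc4 and Hoxc13, at the ends of the same cluster, did not. Hoxc11 had its only count in the first Vprbp siRNA library. Hoxa11, of limb and uterus development, was at 0 in all 3 SB libraries, which at 3 counts per library allows up to 0.223 CPM. Hoxc12 was at 0 in all 3 untreated control siRNA libraries, which allows up to 0.222 CPM. Hoxb6 had 0, 2 and 2 counts with SB and 9, 9 and 8 counts without addition, a ratio of 0.155 (95% counting interval 0.0393 to 0.447), and it passed when no filter was applied (-2.58 ± 0.78, edgeR adjusted p = 0.0196).

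Some of the TALE-class cofactors that bind DNA with Hox proteins also differed between the groups. Of 8 genes, 0 rose and 2 (25.0%) fell with Activin, beside 2.95% higher and 1.88% lower of all genes. With SB 3 (37.5%) rose and 0 fell, beside 11.2% and 11.3% of all genes. These shares of all genes are also the background of the lists that follow. Meis1 averaged 1.98 ± 0.0693 CPM with Activin, 12.5 ± 0.937 CPM with SB and 6.48 ± 1.12 CPM without addition (SD, n = 3 each). Its log2 fold changes were -1.71 ± 0.18 for Activin (edgeR adjusted p = 1.78e-05) and 0.95 ± 0.14 for SB (edgeR adjusted p = 6.22e-05), both against the same untreated libraries. Meis1 thus ran in the direction of Hoxc4 in both comparisons. It did not with Vprbp siRNA and no addition, where Hoxc4 averaged 4.98 CPM against 6.19 CPM with control siRNA, with overlapping ranges and no call. Meis2 fell with Activin (-0.98 ± 0.14, edgeR adjusted p = 0.000569) and Meis3 rose with SB (1.36 ± 0.18, edgeR adjusted p = 1.57e-05). Without addition, Meis1 was at 11.6 ± 0.914 CPM with Vprbp siRNA, against 6.48 ± 1.12 CPM with control siRNA (0.83 ± 0.14, edgeR adjusted p = 0.0283). It was the 1 call among the 8 cofactors (12.5%), beside 0.0411% of all genes called in either direction. Its value without the libraries that stood apart was not examined.

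Of 5 tested Cdx and paraxial regulators, 1 rose and 0 fell with Activin, and 1 rose and 1 fell with SB, each call being 20.0% of the list. Cdx1, a direct activator of Hox genes, averaged 0.841 CPM with SB against 3.38 CPM without addition (-1.99 ± 0.36, edgeR adjusted p = 0.000363). Gdf11, a ligand that promotes trunk-to-tail Hox genes, rose with SB (1.06 ± 0.23, edgeR adjusted p = 0.00184), and Fgf8 rose with Activin (1.86 ± 0.47, edgeR adjusted p = 0.0408). Of 14 tested genes for retinoic acid synthesis, breakdown, binding and reception, 2 (14.3%) rose and 4 (28.6%) fell with Activin, against 2.95% and 1.88% of all genes, and 6 (42.9%) rose and 4 (28.6%) fell with SB, against 11.2% and 11.3%. Aldh1a2, which makes retinoic acid, averaged 14.6 CPM with SB against 2.44 CPM without (2.58 ± 0.20, edgeR adjusted p = 1.21e-08). The receptor gene Rara averaged 75.2 CPM with SB against 192 CPM without (-1.35 ± 0.08, edgeR adjusted p = 3.27e-10). Rxra, a partner of those receptors, rose with SB (0.65 ± 0.08, edgeR adjusted p = 2.94e-06), while the retinoic acid binding proteins Crabp1 (-1.22 ± 0.24, edgeR adjusted p = 0.0169) and Crabp2 (-1.56 ± 0.31, edgeR adjusted p = 0.0115) fell with Activin.

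Among 10 genes outside the clusters that retinoic acid induces, 1 (10.0%) rose and 4 (40.0%) fell with Activin, and 4 (40.0%) rose and 2 (20.0%) fell with SB. Stra8 averaged 66.1 CPM with Activin (-1.92 ± 0.14, edgeR adjusted p = 1.19e-05), 501 CPM with SB (1.01 ± 0.14, edgeR adjusted p = 0.000104) and 249 CPM without addition. Of 22 Polycomb and trithorax genes, 0 rose and 1 (4.55%) fell with Activin, against 2.95% and 1.88% of all genes, and 4 (18.2%) rose and 6 (27.3%) fell with SB, against 11.2% and 11.3%. The single call with Activin and the 4 higher with SB are near those background shares. Phc2, a Polycomb subunit, averaged 115 CPM with SB against 85.6 CPM without (0.43 ± 0.09, edgeR adjusted p = 0.00102), and the Polycomb accessory subunit Jarid2 fell with SB (-0.37 ± 0.08, edgeR adjusted p = 0.00161).

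Of 19 non-coding and Evx genes measured inside or just beyond the clusters, 4 could be tested. With Activin 0 rose and 1 fell, and with SB 0 rose and 2 fell, numbers too small to set against the shares of all genes. Hotairm1, a non-coding gene of the Hoxa cluster, was at 2.44 to 2.91 CPM with Activin, 2.22 to 3.18 CPM with SB and 4.88 to 5.87 CPM without addition. Both treated ranges lay below the untreated one, at -1.01 ± 0.20 for Activin (edgeR adjusted p = 0.00643) and -0.95 ± 0.20 for SB (edgeR adjusted p = 0.00153). Under Vprbp siRNA Hotairm1 fell with Activin as well (-1.29 ± 0.20, edgeR adjusted p = 0.00062). Halr1, a non-coding gene beyond the 3' end of the Hoxa cluster, was at 20.0 to 29.5 CPM with SB and 38.3 to 60.1 CPM without (-0.98 ± 0.16, edgeR adjusted p = 0.000376). In all, 8 of the 19, among them Hotair, Evx2 and the microRNA genes Mir10a and Mir196b, were at 0 in every library. Of 14 coding genes that flank the clusters, 0 rose and 1 (7.14%) fell with Activin, against 2.95% and 1.88% of all genes. With SB 1 (7.14%) rose and 2 (14.3%) fell, near the 11.2% and 11.3% of all genes. Calcoco2 beside the Hoxb cluster was at -0.89 ± 0.15 with Activin (edgeR adjusted p = 0.00125) and Ttll6 beside it at -1.31 ± 0.40 with SB (edgeR adjusted p = 0.0361).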

How the data were processed

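RNA sequencing counts were deposited for 15 libraries of mouse ES-R1 cells in 5 groups of 3, grouped by the sample titles. The authors deposited whole-number read counts per gene, made with HTSeq 0.6.1p1 on mm10 per the submitters' processing notes; for the aligner, annotation and use of strand, none is given in the sources used here. The 5 tally rows that name no gene were left out of library sizes and tests. From the counts, CPM with TMM factors (0.985 to 1.02) were computed, and edgeR 4.0.16 (R 4.3.3) fitted 1 mean per group with robust quasi-likelihood dispersions to the 14600 of 24451 genes that passed filterByExpr at a minimum count of 10, tested 9 contrasts and adjusted each by Benjamini-Hochberg over all genes, with a threshold of 0.05. Standard errors are the log2 fold change over the square root of F. The procedure was tested on simulated counts. Floors and intervals cover counting error only, since reads without molecular identifiers are not independent molecules.

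Alternatives were RLE factors, library totals, other filters, DESeq2 1.42.0, a replicate block, only the libraries compared, non-robust dispersions, leaving out each library and leaving out 3 libraries that stood apart. Numbers pair the samples where all 3 correlations of same-numbered deviations exceed 0.1, which held for Vprbp siRNA against control siRNA without addition (0.152, 0.219 and 0.431) and for no other comparison made here. The Hox genes, gene lists and tests were chosen with earlier results of these data known. Of the 39 Hox genes 38 are accounted for; 1, and single genes of 3 other lists, are not reported here, although the fits include them. Genes past the threshold are given by library, and of each other list up to 4 genes with the smallest p. Gene positions and lengths come from GENCODE vM21 and promoter windows from RefSeq GRCm38.p6.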

Additional observations from a re-analysis of the deposited data

How the results depend on the processing

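No Hox gene changed direction while past the threshold in any alternative, and the counts of Hox genes called stayed within 1.5 times the main value except in 3 comparisons. For Activin against no addition under control siRNA, where 1 was called, the count was 4 with the replicate block (adding Hoxa2, Hoxa3 and Hoxb13), 3 with only the libraries compared, 3 without the 3 libraries that stood apart, and 0 to 1 on leaving out 1 library. For Activin against no addition under Vprbp siRNA, where 2 were called, it was 0 with only the libraries compared and 0 to 3 on leaving out 1 library. For Vprbp siRNA against control siRNA averaged over both conditions, where 0 were called, it was 1 with DESeq2, with the replicate block and with only the libraries compared (Hoxb1 each time), 1 without the 3 libraries that stood apart (Hoxa2), and 0 to 2 on leaving out 1 library. The cause of these shifts was not tested. For SB against no addition, with 9 calls, leaving out 1 library gave 9 to 10, and for Activin against SB, with 8, it gave 8 to 9. Averaged over both siRNAs, Activin against no addition had 7 calls and 5 to 7 on leaving out 1 library. Vprbp siRNA against control siRNA, with or without Activin, and the difference of Activin responses had 0 calls in every alternative, the replicate block included. With no filter, Hoxc9 (-2.20) and Hoxd8 (-1.97) also passed for Activin against SB. Depth limits the 16 untested genes, the Hoxd genes, and Hoxa9 and Hoxb5 with SB, where libraries held 1 to 5 counts.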
